A study of Homo sapiens with 12 samples.

Results

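Small RNA was compared between human HCT116 cells rescued with the DICER form labelled E5 and HCT116 cells rescued with the form labelled A5, a comparison of one mutant DICER with another in which no wild-type library enters the contrast. HCT116 is an established line of colorectal carcinoma cells, and a rescue library comes from cells given back the named form of DICER. The E5 group and the A5 group have 2 libraries each, so 4 of the 12 libraries of the series make up the contrast, and all 1346 human miRNA entries of the tables were followed in them, with 30 spike-in entries giving a second scale. The other groups are the R821E, R821A, ΔPAZ helix and WT rescues, also with 2 libraries each, and they enter the estimate of spread, the comparison of contrasts and the levels given for single miRNAs. By its title, the series accompanies a structure of the DICER enzyme caught while it cuts a pre-miRNA. The sources used here do not say what E5 and A5 change in the protein, which DICER the recipient cells still have or whether the libraries of a group come from separate cultures, so the p-values measure the spread between these libraries, which may be technical.

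DICER cuts the hairpin-shaped precursors that DROSHA releases in the nucleus, the pre-miRNAs, into a short duplex. One strand of the duplex is loaded into an Argonaute protein and becomes the mature miRNA, and the other is mostly degraded. The strand from the left side of the hairpin is called 5p and that from the right side 3p, and a miRNA finds its mRNA targets mainly through its seed, bases 2 to 8 from the 5′ end, so members of a family with the same seed share many targets. DICER positions its cut by holding the ends of the precursor in its platform and PAZ domains, and a moved cut changes the ends of both strands, which can alter the seed or the choice of strand.

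The sequences of the miRNAs to which the results return are given first, from RefSeq on GRCh38.p14, with the seed in capitals. The first set shares the seed AUUGCAC, and its members miR-25-3p, miR-92a-3p and miR-92b-3p had lower levels in both E5 libraries than in both A5 libraries, while miR-32-5p did not.
miR-25-3p: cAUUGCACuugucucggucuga
miR-92a-3p: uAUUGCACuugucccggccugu
miR-92b-3p: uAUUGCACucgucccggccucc
miR-32-5p: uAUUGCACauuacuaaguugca
miR-25-3p lies at chr7:100093571-100093592 on the minus strand, miR-92b-3p at chr1:155195237-155195258 on the plus strand and miR-32-5p at chr9:109046272-109046293 on the minus strand. miR-92a-3p has 2 loci with the same mature sequence, MIR92A1 at chr13:91351361-91351382 on the plus strand and MIR92A2 at chrX:134169544-134169565 on the minus strand, so its counts cannot be assigned to one hairpin. The first 3 members come from the right arm of their hairpins and miR-32-5p from the left arm. Read from the 5′ end, miR-92a-3p differs from miR-92b-3p at 3 positions and from miR-25-3p at 4 positions.

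The hairpins of the first 3 show where DICER cuts, at the loop side of the arms. Both mature arms are in capitals, and the sequence between them is the loop.
MIR25: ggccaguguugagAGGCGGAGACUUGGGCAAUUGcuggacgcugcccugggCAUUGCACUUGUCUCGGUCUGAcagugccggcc
MIR92A1: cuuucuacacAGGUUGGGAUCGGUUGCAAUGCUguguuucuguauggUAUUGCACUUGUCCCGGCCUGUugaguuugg
MIR92B: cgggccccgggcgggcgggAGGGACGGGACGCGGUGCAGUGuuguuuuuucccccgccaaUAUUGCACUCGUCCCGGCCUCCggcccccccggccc
These hairpins lie at chr7:100093560-100093643 on the minus strand, chr13:91351314-91351391 on the plus strand and chr1:155195177-155195272 on the plus strand.

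The next set holds 4 miRNAs whose levels were higher in both E5 libraries, and let-7e-5p, whose level was lower in both.
miR-106a-5p: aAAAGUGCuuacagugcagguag
miR-19a-3p: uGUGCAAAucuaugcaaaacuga
miR-130b-3p: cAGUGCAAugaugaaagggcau
miR-193a-3p: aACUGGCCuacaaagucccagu
let-7e-5p: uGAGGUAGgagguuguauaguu
For comparison, the close relative of miR-106a-5p made by the miR-17~92 cluster has the sequence shown next, which differs from it at 1 position.
miR-17-5p: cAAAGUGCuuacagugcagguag
These entries lie at chrX:134170244-134170266 on the minus strand and at chr13:91350939-91350961, chr22:21653354-21653375, chr17:31560050-31560071, chr19:51692793-51692814 and chr13:91350618-91350640 on the plus strand. The sources used here do not say how a read that matches several near-identical miRNAs was counted, so miR-106a-5p against miR-17-5p, miR-92a-3p against miR-92b-3p and single let-7 members are uncertain.

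The miRNA counts summed to 179615 and 227199 in the E5 libraries, against 193950 and 250294 in the A5 libraries, within the range of 144067 to 255296 over the 12 libraries. At these depths 3 counts are worth 16.7 and 13.2 CPM (counts per 1000000 miRNA counts) in the E5 libraries, against 15.5 and 11.99 CPM in the A5 libraries, and these floors cover counting error only. An entry was tested where it passed a filter on low counts over the series. The filter kept 374 entries, 174 named 5p, 148 named 3p and 52 with no arm in their name, which hold 99.6% of the miRNA counts of each of the 4 libraries. The 972 entries left out include 285 with no count in any of the 4. Of the list taken for colon epithelium, 17 of 18 entries were detected and miR-200c-5p was at 0. Its 4 miR-21 and miR-31 entries, which other cell types also express, took 49.4% to 52.6% of the counts in the 4 libraries. The other 14, of miR-141, the miR-200 family and miR-192, miR-194 and miR-215, took 0.252% to 0.276%. The erythroid, leukocyte, neuronal and fibroblast or endothelial lists took 0.0272% to 0.179% of the counts of any of the 4 libraries, the hepatocyte entry had 0 to 2 counts, and both muscle entries were at 0.

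The second E5 library stood apart from the other 3 libraries of the contrast. Over the 262 entries averaging 100 CPM or more, the SD of the log2 ratio between the second E5 library and the first was 0.607, with 25 entries more than 2-fold apart, against 0.370 and 5 entries between the A5 libraries. The first E5 library differed from each of the A5 libraries by an SD of 0.416 and 0.408, which is less than it differed from its own replicate, while the second E5 library differed from them by 0.639 and 0.604. In the counts, the chi-square statistic per degree of freedom was 14.6 between the E5 libraries and 5.16 between the A5 libraries, and both pairs differed by more than sampling noise. Values without the second E5 library are therefore given beside several results, though not beside each.

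Both forms gave libraries of much the same make-up. The E5 libraries held 17.7 and 16.5 miRNA counts per spike-in count, against 18.3 and 18.6 in the A5 libraries, so the ratio was lower in both E5 libraries. The means were 17.1 ± 0.856 in E5 and 18.5 ± 0.206 in A5 libraries (SD, n = 2 each), and the two-sided exact permutation test gave p = 0.333, the smallest p that 2 libraries against 2 allow (adjusted p = 1 over 10 quantities). The 3p arms took 18.8% and 21.9% of counts in the E5 libraries, against 20.3% and 22.3% in the A5 libraries, and these ranges overlap (exact permutation p = 0.667). miR-21-5p, the most abundant miRNA here and a known repressor of PDCD4, took 47.2% and 42.6% of counts in the E5 libraries, against 45.1% and 43.6% in the A5 libraries. The number of entries with a count was 690 and 775 in the E5 libraries, against 713 and 772 in the A5 libraries. All 10 library quantities had an adjusted p of 1, and with 2 libraries a group none could have passed 0.05.

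No miRNA level passed the test between E5 and A5. Levels below are CPM after scaling by TMM, a normalisation that sets the bulk of entries equal between libraries, and fold changes are log2 of E5 over A5 with an approximate standard error (SE). With edgeR's quasi-likelihood test and Benjamini-Hochberg adjustment, 0 of 374 entries had an adjusted p under 0.05, a background of 0%, and the lowest adjusted p was 0.190. At an unadjusted p under 0.05 there were 37 entries, 9.89% of those tested, of which 14 were higher and 23 lower in E5. DESeq2 called 0, with 18 at an unadjusted p under 0.05, and limma voom called 0, with 36. Without the second E5 library the count of calls was again 0, and the entries at an unadjusted p under 0.05 numbered 11 of 410 tested. Without the first there were 61 of 411, without the first A5 library 24 of 412 and without the second 29 of 410. Without the first E5 library 1 entry was called, miR-6087, an entry with 132.9 and 955 CPM in E5 libraries, against 185.5 and 117 CPM in A5 libraries, whose second E5 library stands far above the other 3 and whose log2 fold change was -0.15 without it.

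The precision of the contrast differed widely between entries. The median log2 fold change was 0.0012 and the median SE 0.327. The 95% interval of the fold change lay within 2-fold either way for 176 entries (47.1%) and within 1.5-fold for 64. Among the 262 entries at 100 CPM or more, 171 (65.3%) had intervals within 2-fold, and 8 had an estimated change of more than 2-fold, against 25 among all 374. For the remaining entries a 2-fold difference between the E5 and A5 libraries was not detectable or not bounded at this depth and replicate spread.

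**Figure D1:**
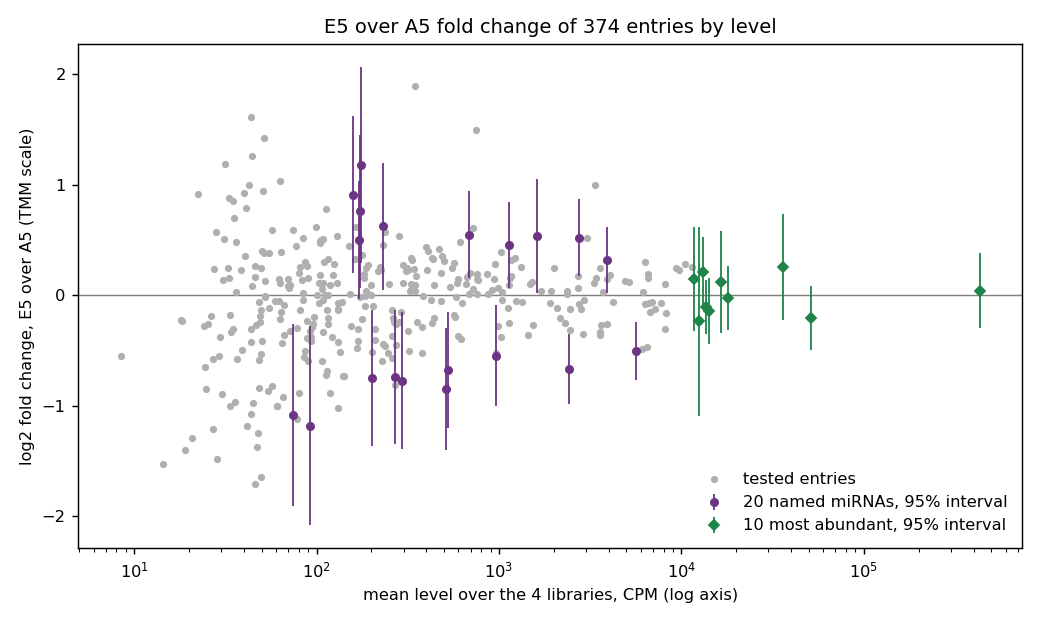
Log2 fold change of E5 over A5 for each of the 374 tested miRNA entries (vertical axis) against its mean level over the 4 libraries in TMM-scaled CPM (horizontal axis, log scale). Bars are 95% intervals, drawn for the 20 named entries (circles) and the 10 most abundant (diamonds). The spread narrows as the level rises, and no entry had an adjusted p under 0.05.

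Separation of the libraries was counted as a description. Both E5 libraries lay above both A5 libraries for 67 entries (17.9% of those tested) and below both for 74 entries (19.8%). On the spike-in scale, which takes the summed spike-in counts of a library as its size and so keeps a change of total miRNA, 0 of 374 entries were called, a background of 0%, and the lowest adjusted p was 0.0523. There both E5 libraries lay above both A5 libraries for 38 entries (10.2%) and below both for 122 entries (32.6%), and the median log2 fold change was -0.13. The spike-ins limit this scale, since over the 29 spike-ins with at least 400 summed counts the log2 ratio of E5 over A5 had an SD of 0.248 and ranged from -0.41 to 0.56.

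The 3 lowest p-values among abundant entries fell on the 3p members of the miR-25 and miR-92 family, which repress BCL2L11 among other targets. miR-25-3p, made from an intron of MCM7 in the miR-106b~25 cluster, had 1695 and 2039.9 CPM in E5 libraries, against 3038 and 2888 CPM in A5 libraries. Both E5 libraries were below both A5 libraries, with a log2 fold change of -0.66 ± 0.147 (SE, 95% interval -0.98 to -0.35), an edgeR p of 5.09e-04 and an adjusted p of 0.190. miR-92a-3p, made by the miR-17~92 cluster and its paralogue on chromosome X, had 4674 and 4641 CPM in E5 libraries, against 6502 and 6674 CPM in A5 libraries. The 2 E5 libraries were close to each other and lower than both A5 libraries, with a log2 fold change of -0.50 ± 0.122 (95% interval -0.76 to -0.24, edgeR adjusted p = 0.215). miR-92b-3p, from a hairpin of its own on chromosome 1, had 449 and 289 CPM in E5 libraries, against 667 and 653 CPM in A5 libraries. It was again lower in both E5 libraries, with the second E5 library the lowest of the 4 and a log2 fold change of -0.85 ± 0.257 (edgeR adjusted p = 0.450).

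The fourth miRNA with this seed did not share the direction. miR-32-5p, which is made from the left arm of a hairpin in an intron of TMEM245, had 1207 and 1369.7 CPM in E5 libraries, against 1063 and 1000.3 CPM in A5 libraries. Both E5 libraries were above both A5 libraries, by a log2 fold change of 0.32 ± 0.192 whose 95% interval, -0.090 to 0.74, includes 0. The passenger arms had few counts. miR-25-5p had 8 and 11 counts in E5 libraries, against 18 and 22 counts in A5 libraries, a log2 fold change of -0.92 ± 0.518, and miR-92a-1-5p had 3 and 5 counts in E5 libraries, against 6 and 8 counts in A5 libraries, a log2 fold change of -0.65 ± 0.651. Both arms of MIR25 were thus lower in both E5 libraries. Of the 8 tested members of the family list, both arms included, 7 had a negative fold change and none was called. For 6 members both E5 libraries lay below both A5 libraries and for 1 above, beside 19.8% and 17.9% over all entries. Among the 6 are miR-25-3p, miR-92a-3p and miR-92b-3p, which were named by p and separation, so that count is partly set by the choice. The list median was -0.66, beside 0.0012 over all entries.

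On the spike-in scale the same 3 entries had lower values in E5. In counts per 1000 spike-in counts, miR-25-3p had 30.2 and 35.4 in E5 libraries, against 57.3 and 56.9 in A5 libraries, a log2 fold change of -0.80 with an edgeR adjusted p of 0.0523. In the same unit, miR-92a-3p had 83.3 and 80.6 in E5 libraries, against 123 and 132 in A5 libraries, a log2 fold change of -0.63 with an edgeR adjusted p of 0.0639. miR-92b-3p had a log2 fold change of -0.98 (edgeR adjusted p = 0.269). Over all entries the median log2 fold change was -0.13 on this scale and 0.0012 with TMM. Fold changes here were thus lower over the entries as a whole. miR-25-3p and miR-92a-3p missed the threshold of 0.05 narrowly here, and passed it on this scale where only entries at 100 CPM or more were tested (adjusted p = 0.0347 and 0.0348) and where the spike-in sizes were given TMM factors of their own (0.0334 and 0.0447). They did not pass it in other alternatives, where the lowest adjusted p of any entry on this scale was 0.227 with only the 4 libraries of the contrast, 0.137 with the replicate number as a block, 0.165 without the second E5 library, 0.401 without the first A5 library and 0.475 without the second, and the one entry called without the first E5 library was miR-6087. Without the second E5 library the log2 fold changes on the TMM scale were -0.80 for miR-25-3p, -0.49 for miR-92a-3p and -0.55 for miR-92b-3p. Without the first they were -0.53, -0.50 and -1.18 in the same order, so all kept their sign.

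**Figure D2:**
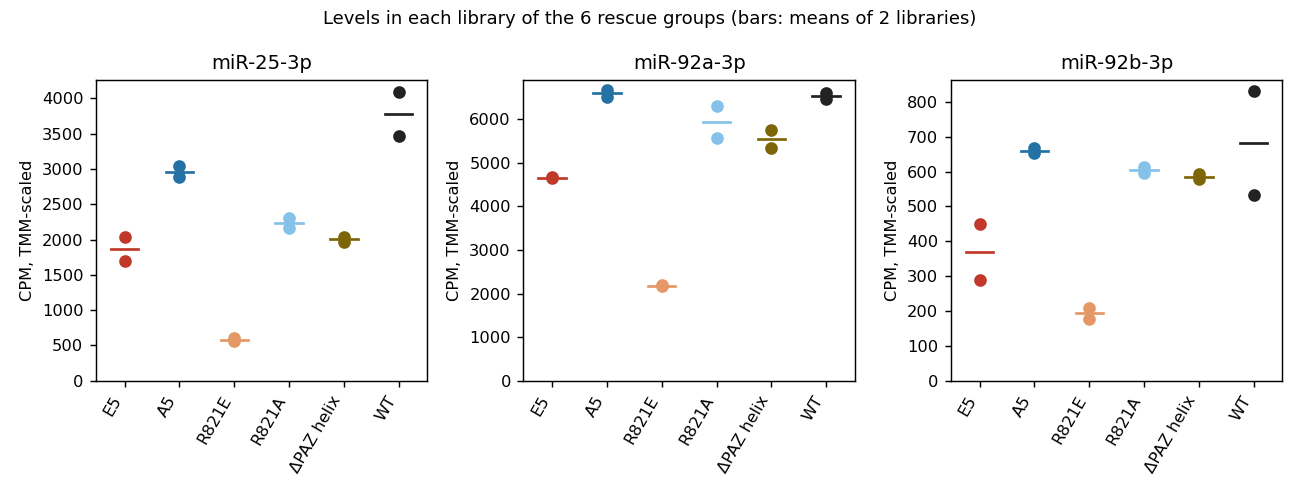
Levels of miR-25-3p, miR-92a-3p and miR-92b-3p in TMM-scaled CPM (vertical axes, each from 0) in each library of the 6 rescue groups (horizontal axis), with points for libraries and short lines for group means. In each panel both E5 points lie below both A5 points, and the R821E points are the lowest.

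Over the whole series, miR-25-3p averaged 1867 CPM in E5, 2963 in A5, 582 in R821E, 2235 in R821A, 2001 in ΔPAZ helix and 3778 in WT libraries (n = 2 each). The ΔPAZ helix libraries had 1959.8 and 2042 CPM and the WT libraries 4086 and 3469 CPM. E5 thus lay in the lower range of the groups, near ΔPAZ helix, with only R821E clearly below it, and A5 lay between R821A and WT. miR-92a-3p averaged 4658 CPM in E5, 6588 in A5, 2179.7 in R821E, 5927 in R821A, 5542 in ΔPAZ helix and 6524 in WT libraries. Its A5 and WT libraries overlap, and both E5 libraries lie below all libraries but those of R821E.

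Within the clusters that encode these miRNAs, the estimates differed between members. In the miR-106b~25 cluster, miR-106b-5p had 2398 and 2371 CPM in E5 libraries, against 2341 and 2299 CPM in A5 libraries, a log2 fold change of 0.040 ± 0.151. miR-93-5p of the same transcript had 2033 and 1960.3 CPM in E5 libraries, against 2356 and 1978 CPM in A5 libraries, a log2 fold change of -0.12 ± 0.165. Of the other arms of this transcript, miR-106b-3p was lower in both E5 libraries, with 88.6 and 75.4 CPM in E5 libraries, against 115 and 90.6 CPM in A5 libraries (-0.32 ± 0.359, and -0.19 without the second E5 library). miR-93-3p had 681 and 364 CPM in E5 libraries, against 627 and 706 CPM in A5 libraries (-0.36 ± 0.310), where the second E5 library was the lowest, and without it the value was 0.037. The differences between members of the cluster were not tested. In the miR-17~92 cluster, miR-19a-3p had 1169 and 1445 CPM in E5 libraries, against 998 and 909.7 CPM in A5 libraries, which put both E5 libraries above both A5 libraries (log2 fold change 0.46 ± 0.181, and 0.30 without the second E5 library). miR-19b-3p had 2553 and 4616 CPM in E5 libraries, against 2311 and 2684 CPM in A5 libraries, where the first E5 library lay within the A5 range and the second far above it (log2 fold change 0.52 ± 0.247, and 0.038 without it). The log2 fold changes of miR-17-5p, miR-18a-5p and miR-20a-5p, which promote cell-cycle entry in many tumours, were 0.25, 0.18 and 0.027, and 0.064, 0.075 and 0.075 without the second E5 library, beside -0.50 for miR-92a-3p. None of these differences was called.

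The entries with the smallest p among those higher in both E5 libraries had log2 fold changes between 0.32 and 1.18, and no adjusted p under 0.450. miR-28-5p, encoded in an intron of LPP, had 3179 and 3301 CPM in E5 libraries, against 1899.9 and 2605 CPM in A5 libraries. The A5 libraries were further apart than the E5 libraries, and the log2 fold change was 0.52 ± 0.162 (95% interval 0.18 to 0.87, edgeR adjusted p = 0.450). It was 0.29 without the first A5 library and 0.79 without the second. miR-101-3p, a repressor of EZH2, had 753 and 879.6 CPM in E5 libraries, against 566 and 551 CPM in A5 libraries, a log2 fold change of 0.55 ± 0.184. miR-106a-5p had 166 and 323 CPM in E5 libraries, against 95.2 and 121 CPM in A5 libraries, the largest estimated change of the 10 at 1.18 ± 0.412. That value leans on the second E5 library, without which it was 0.61, and the entry differs from the far more abundant miR-17-5p at the single position shown by the sequences above.

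The remaining entries of this set spanned a wide range of levels. miR-193a-3p, a repressor of MCL1, had 294 and 268 CPM in E5 libraries, against 165 and 196 CPM in A5 libraries, with little spread inside either group and a log2 fold change of 0.62 ± 0.268. miR-135b-5p, a repressor of APC that is raised in colorectal carcinoma, had 1534 and 2312 CPM in E5 libraries, against 1318 and 1336 CPM in A5 libraries. Its first E5 library lay close to the A5 libraries, and the log2 fold change of 0.54 ± 0.238 was 0.22 without the second. miR-29b-1-5p, the usual passenger strand of a miR-29b hairpin, had 4093 and 4628 CPM in E5 libraries, against 3409 and 3582 CPM in A5 libraries, a log2 fold change of 0.32 ± 0.138. miR-130b-3p had 188.3 and 247 CPM in E5 libraries, against 125 and 132 CPM in A5 libraries (0.76 ± 0.322). The log2 fold changes of miR-33a-3p, the passenger of an SREBF2 intronic hairpin, and miR-181a-2-3p were 0.91 and 0.50, and that of miR-33a-3p ran from 0.57 without the second A5 library to 1.29 without the first. All 10 kept a positive sign on the spike-in scale, with only the 4 libraries, with the replicate number as a block and in DESeq2. They also kept it in each fit that leaves out a library, and none was called. On the spike-in scale the log2 fold changes of miR-106a-5p, miR-33a-3p, miR-130b-3p, miR-101-3p and miR-28-5p were 1.04, 0.78, 0.63, 0.42 and 0.39.

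**Figure D3:**
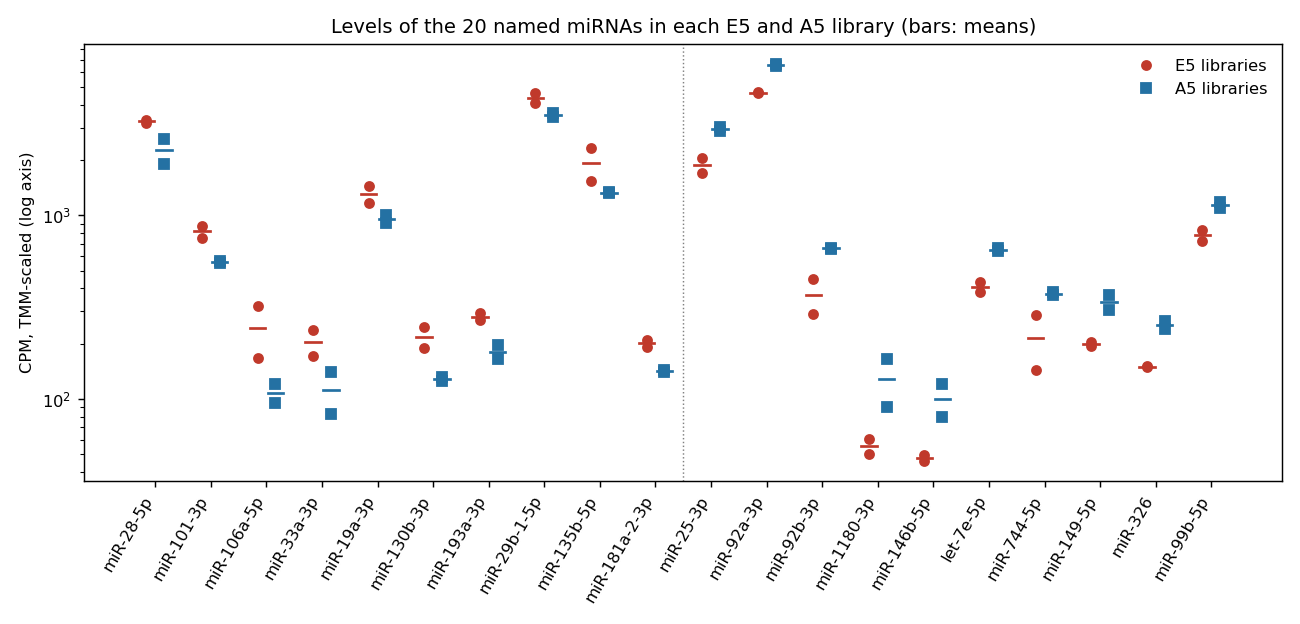
Levels of the 20 miRNAs named by p and separation, in TMM-scaled CPM on a log axis, in each E5 and A5 library. By the way they were chosen, both E5 points lie above both A5 points for 10 entries and below them for the other 10, and the gap is small beside the spread of levels between entries.

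The 10 entries on the lower side included the 3 of the miR-25 and miR-92 family. let-7e-5p, of the let-7 family that represses RAS, HMGA2 and LIN28, had 432 and 381 CPM in E5 libraries, against 637 and 661 CPM in A5 libraries, with both E5 libraries well below both A5 libraries (log2 fold change -0.68 ± 0.243, edgeR adjusted p = 0.450). Its neighbour on chromosome 19, miR-99b-5p, of a family that represses MTOR, had 836 and 729 CPM in E5 libraries, against 1098 and 1181 CPM in A5 libraries, a log2 fold change of -0.55 ± 0.214. Both are cut from one primary transcript with miR-125a-5p, which had 1158 and 1181 CPM in E5 libraries, against 662 and 1109.8 CPM in A5 libraries and was higher in both E5 libraries (0.39 ± 0.292, but 0.054 without the first A5 library). miR-146b-5p, a repressor of TRAF6 and IRAK1, had 9 and 11 counts in E5 libraries, against 16 and 32 counts in A5 libraries, which leaves a wide interval of -1.91 to -0.26 around its log2 fold change of -1.08.

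miR-744-5p is the entry on this side for which the E5 libraries differed most. It had 143.998 and 285 CPM in E5 libraries, against 381 and 366 CPM in A5 libraries, a log2 fold change of -0.77 ± 0.290 that was -1.36 without the second E5 library (edgeR adjusted p = 0.193) and -0.38 without the first. miR-149-5p had 193.8 and 205 CPM in E5 libraries, against 366 and 306 CPM in A5 libraries, a log2 fold change of -0.74 ± 0.282. miR-326 had 149.5 and 151 CPM in E5 libraries, against 266 and 242 CPM in A5 libraries, a log2 fold change of -0.75 ± 0.287. In both, the E5 libraries were nearly equal to each other. miR-1180-3p had 60.9 and 50.3 CPM in E5 libraries, against 165 and 90.6 CPM in A5 libraries, and its A5 libraries were further apart than its E5 libraries (-1.18 ± 0.418, but -0.73 without the first A5 library and -1.56 without the second). At lower levels, under the minimum mean of 100 CPM used for choosing these entries, miR-182-3p had 4 and 6 counts in E5 libraries, against 16 and 19 counts in A5 libraries (edgeR adjusted p = 0.295) and miR-30c-1-3p had 3 and 6 counts in E5 libraries, against 14 and 19 counts in A5 libraries (adjusted p = 0.450). These were chosen for mention after their values were seen, and neither was called.

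None of the 10 most abundant miRNAs was called, and their estimated changes lay between -0.23 and 0.25. miR-21-5p had 469183 and 405444 CPM in E5 libraries, against 438312 and 412200 CPM in A5 libraries, a log2 fold change of 0.040 ± 0.158 with a 95% interval of -0.30 to 0.38. miR-222-3p, a repressor of CDKN1B, had 44235 and 50779 CPM in E5 libraries, against 52991 and 56307 CPM in A5 libraries (-0.20 ± 0.135). miR-16-5p, a repressor of BCL2 and cyclins, had 13679.8 and 12771 CPM in E5 libraries, against 13579.9 and 14842 CPM in A5 libraries (-0.10 ± 0.114). The intervals of these 3 exclude a 2-fold change in either direction. miR-31-5p, which is raised in colorectal tumours, had 31497 and 46879 CPM in E5 libraries, against 31306 and 34410.1 CPM in A5 libraries, where 3 libraries were nearly equal and the second E5 library was above them (0.25 ± 0.221, and -0.05 without that library). The log2 fold changes of the other 6 of the 10 most abundant, miR-100-5p, miR-4521, miR-221-3p, miR-10a-5p, miR-21-3p and miR-27a-3p, lay between -0.23 and 0.21. The interval of miR-31-5p was -0.23 to 0.73, and those of miR-4521 and miR-27a-3p were -0.34 to 0.58 and -0.32 to 0.62. miR-21-3p, the least certain of them, had 14145 and 8909 CPM in E5 libraries, against 14372 and 12739.6 CPM in A5 libraries, with an interval of -1.09 to 0.62 that does not exclude a 2-fold lower level in E5, and a value of -0.60 without the first E5 library and 0.070 without the second.

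Families of miRNAs were described by the number of members whose E5 and A5 libraries did not overlap, beside 17.9% higher and 19.8% lower over all entries. No list held a called entry. Of 19 tested let-7 and miR-98 entries, both arms included, 1 was higher and 8 were lower in both E5 libraries, 15 had a negative fold change and the median was -0.28. let-7i-5p had 3223 and 3054 CPM in E5 libraries, against 3865 and 4171 CPM in A5 libraries (-0.36 ± 0.140), and let-7d-5p had 809 and 775 CPM in E5 libraries, against 1193 and 1087 CPM in A5 libraries (-0.53 ± 0.272). The 2 E5 libraries of let-7d-5p were near each other and below both A5 libraries. Of more abundant members, let-7b-5p had 2808 and 2274 CPM in E5 libraries, against 3414 and 3054 CPM in A5 libraries (-0.35 ± 0.154). The level of let-7f-5p was 2592 and 2099 CPM in E5 libraries, against 2396 and 2706 CPM in A5 libraries, which overlap (-0.12 ± 0.169). let-7a-5p, the most abundant member, had 6397 and 5835 CPM in E5 libraries, against 6211 and 6719 CPM in A5 libraries, which overlap (-0.081 ± 0.167). Reads of let-7 members may be shared between entries, so the family is better read as a whole.

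Among the other families, 4 of 4 tested miR-19 entries had positive fold changes with a median of 0.49, though the libraries were separated for 1 alone. Of 11 entries of the miR-15 and miR-16 family, 4 were higher and 1 lower in both E5 libraries with a median of 0.06. miR-15b-5p, a relative of miR-16-5p, had 5865 and 8038 CPM in E5 libraries, against 5765 and 5515 CPM in A5 libraries (0.30 ± 0.163, and 0.065 without the second E5 library). Of 6 entries of the miR-200 family, which keeps epithelial cells epithelial by repressing ZEB1 and ZEB2, none was higher and 2 were lower, with a median of -0.23. miR-200b-3p, the most abundant of them, had 1102 and 1231 CPM in E5 libraries, against 1163 and 1034 CPM in A5 libraries, which overlap. Of 5 miR-26 entries 1 was higher and 3 were lower, and of 10 miR-30 entries 1 was higher and 1 lower with a median of 0.01. The medians of the lists around miR-17, miR-23, miR-10, miR-125, miR-148 and miR-130 lay between 0.01 and 0.06.

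Hairpins with an unusual route of maturation were looked at separately. miR-451a, which is cut by AGO2 and bypasses DICER, had 210.5 and 188.5 CPM in E5 libraries, against 165 and 143.4 CPM in A5 libraries, higher in both E5 libraries with a log2 fold change of 0.37 ± 0.266. miR-320a, whose precursor begins at a capped transcription start site and needs no DROSHA, had 3473 and 2848 CPM in E5 libraries, against 4281 and 3658 CPM in A5 libraries (-0.33 ± 0.232, and -0.18 without the second E5 library). miR-484, of the same kind, had 487 and 582 CPM in E5 libraries, against 607 and 800.2 CPM in A5 libraries (-0.40 ± 0.208, but -0.16 without the second A5 library). Both were lower in both E5 libraries. miR-877-5p, a mirtron whose precursor is made by splicing, had 132.9 and 79.6 CPM in E5 libraries, against 190.5 and 159 CPM in A5 libraries (-0.73 ± 0.326, and -0.38 without the second E5 library). None of these differences passed the test.

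**Figure D4:**
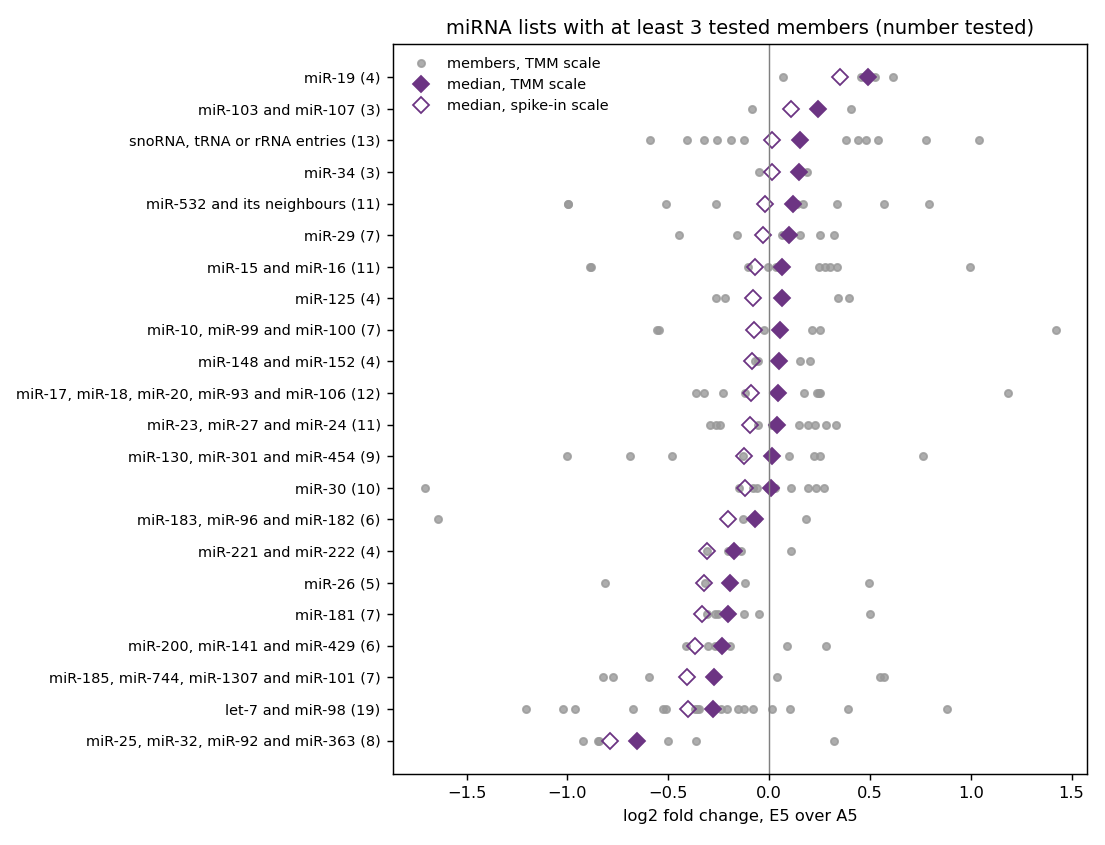
Log2 fold change of E5 over A5 (horizontal axis) for the tested members of each miRNA list with at least 3 (grey points on the TMM scale, one row per list), with the list median on the TMM scale (filled diamonds) and the spike-in scale (open diamonds). The medians of most lists lie within 0.3 of 0 on the TMM scale, and that of the miR-25, miR-32, miR-92 and miR-363 list is -0.66.

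Arms of one hairpin were compared by the log2 ratio of 5p to 3p counts, in which the scale of a library cancels. Of 69 hairpins with enough counts on both arms, 0 had a shifted ratio by limma with Benjamini-Hochberg adjustment, a background of 0%, and 0 had an unadjusted p under 0.05. The lowest adjusted p was 0.640, the median shift was 0.10 toward 5p in E5, and 30 hairpins had intervals within 2-fold. Both E5 ratios lay above both A5 ratios for 20 hairpins and below both for 7. The mean log2 ratio had opposite signs in E5 and A5 for 3 hairpins, miR-29c, miR-550a and miR-629. In that order the means were -0.16, 0.25 and 0.44 in E5, against 0.38, -0.20 and -0.0022 in A5. These means are near equal arms, the miR-629 libraries overlapped and none of the 3 was called.

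miR-29a had 1290 and 1595 5p counts and 1346 and 1917 3p counts in E5 libraries, against 1328 and 1529 5p counts and 1699 and 2333 3p counts in A5 libraries. Its 5p share was larger in both E5 libraries, a shift of 0.32 ± 0.156 on the log2 scale, and the 3p arm stayed the more abundant one in all 4. miR-222 had 572 and 894 5p counts and 7987 and 12123 3p counts in E5 libraries, against 621 and 873 5p counts and 10571 and 14917 3p counts in A5 libraries, a shift of 0.31 ± 0.165. miR-33a, whose 5p arm represses ABCA1, had log2 ratios of 5p to 3p of 2.61 and 2.50 in E5 libraries, against 2.90 and 3.72 in A5 libraries, a shift of -0.76 ± 0.377 toward 3p in E5. miR-324, a hairpin known for a strand choice that depends on the cut site, had 31 and 58 5p counts and 62 and 118 3p counts in E5 libraries, against 60 and 85 5p counts and 77 and 127 3p counts in A5 libraries, a shift of -0.54 ± 0.343, again toward 3p in both E5 libraries. The shifts of miR-769, miR-454 and miR-4485 toward 5p were 1.16 ± 0.538, 0.79 ± 0.401 and 0.82 ± 0.489, and those of miR-29c, miR-200b and miR-130b toward 3p were -0.55 ± 0.310, -0.54 ± 0.383 and -0.52 ± 0.369. All of these 10 intervals include 0.

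Sequence content was set beside the fold changes for the 331 of 374 tested entries that matched a RefSeq sequence. By tertiles of GC content, the median log2 fold change of E5 over A5 was 0.084 in the lowest tertile, 0.052 in the middle tertile and -0.24 in the highest. In the highest tertile, 11 of 111 entries were higher and 32 lower in both E5 libraries. The counts were 20 and 18 of 110 in the middle tertile and 25 and 18 of 110 in the lowest. Over all 374 tested entries the shares were 17.9% higher and 19.8% lower. Across entries, GC content and log2 fold change had a Pearson correlation of -0.23 and a Spearman correlation of -0.27 (n = 331), and these entries share the same 4 libraries. The same description of R821E over R821A gave -0.27 and -0.29, with medians of 0.30, -0.18 and -0.49 from the lowest tertile to the highest. The part of base composition in the results was not tested. Of the 11 seeds shared by 3 or more matched entries, AGUGCAA and AUUGCAC had the lowest medians, both -0.58. Among matched entries, AGUGCAA was held by miR-130b-3p, miR-301a-3p, miR-301b-3p and miR-454-3p. Of these 4 matched members, 3 had negative fold changes: -0.69 ± 0.371 for miR-454-3p, -0.48 ± 0.366 for miR-301a-3p and -1.0 ± 0.584 for miR-301b-3p. The last had 5 and 4 counts in E5 libraries, against 12 and 8 counts in A5 libraries. The fourth, miR-130b-3p, had 0.76. The tested miR-130a-3p, of the same family list, is not among the matched entries with this seed, so the median leaves it out. Its log2 fold change was 0.014. The highest median, 0.18, belonged to AGCAGCA of the miR-15 and miR-16 family.

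A second pair of mutants in the series, R821E and R821A, shares no library with E5 and A5. The 2 contrasts differed in size. The median absolute log2 fold change was 0.262 for E5 over A5 and 0.761 for R821E over R821A, and 25 and 121 of 374 entries had estimates of more than 2-fold. edgeR called 0 entries between E5 and A5, and 82 higher and 73 lower in R821E than in R821A. Across entries the log2 fold changes of the contrasts had a Pearson correlation of 0.07 and a Spearman correlation of 0.12 (n = 374). For the 262 entries at 100 CPM or more in E5 or A5 they were 0.16 and 0.13. The median SE of E5 over A5, 0.327, was above its median absolute fold change, which limits what these correlations can show.

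The difference between the contrasts was tested directly, as E5 over A5 minus R821E over R821A. It was called for 77 entries, 38 with a higher value for E5 over A5 (10.2% of those tested) and 39 with a lower one (10.4%). This count rests on single libraries. It was 0 without the first A5 library (lowest adjusted p 0.0711) and 0 without the first R821A library (0.0586), 10 without the first R821E library and 11 without the second E5 library. Leaving out any one of the other 4 libraries gave 42 to 86, and 109 and 123 entries had an unadjusted p under 0.05 in the fits with no call. On the spike-in scale 116 entries were called, 114 higher and 2 lower, and the median of the difference over all entries was 0.82 there and -0.0074 with TMM.

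miR-25-3p was lower in R821E than in R821A, as it was in E5 than in A5. It had 564 and 599 CPM in R821E libraries, against 2308 and 2162 CPM in R821A libraries, a log2 fold change of -1.94, which was larger in size than the -0.66 of E5 over A5 by 1.28 ± 0.215 (edgeR adjusted p = 0.00837). miR-92a-3p had 2189 and 2171 CPM in R821E libraries, against 6300.1 and 5555 CPM in R821A libraries, a log2 fold change of -1.44 and a difference of contrasts of 0.94 ± 0.174 (adjusted p = 0.00837). For miR-92b-3p the R821E over R821A value was -1.65 and the difference of 0.80 ± 0.386 was not called (adjusted p = 0.147).

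Other entries differed between the contrasts in the direction or size of their estimates. miR-193a-3p, higher in both E5 libraries than in both A5 libraries, had 61.3 and 43.4 CPM in R821E libraries, against 193 and 175 CPM in R821A libraries, so the contrasts differed by 2.40 ± 0.446 (adjusted p = 0.00837). miR-130b-3p, also higher in both E5 libraries, had 141.01 and 60.8 CPM in R821E libraries, against 182.9 and 249 CPM in R821A libraries, a difference of contrasts of 1.79 ± 0.477. miR-330-3p was about equal in E5 and A5, with a log2 fold change of 0.035 ± 0.255, and had 79.7 and 95.5 CPM in R821E libraries, against 274 and 263 CPM in R821A libraries (1.66 ± 0.390). In the other direction, miR-1275 had 349 and 436 CPM in E5 libraries, against 546 and 393 CPM in A5 libraries, while the R821E libraries held 1312 and 1042 CPM, against 436 and 438 CPM in R821A libraries (-1.68 ± 0.379). miR-8072 had the largest difference, -3.88 ± 0.845, on 1 and 2 counts in the E5 libraries, against 5 and 5 in the A5 libraries. Its R821E libraries were at 104 and 104 CPM and its R821A libraries at 21.1 and 18.4 CPM, so most of that difference lies in the R821 pair.

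**Figure D5:**
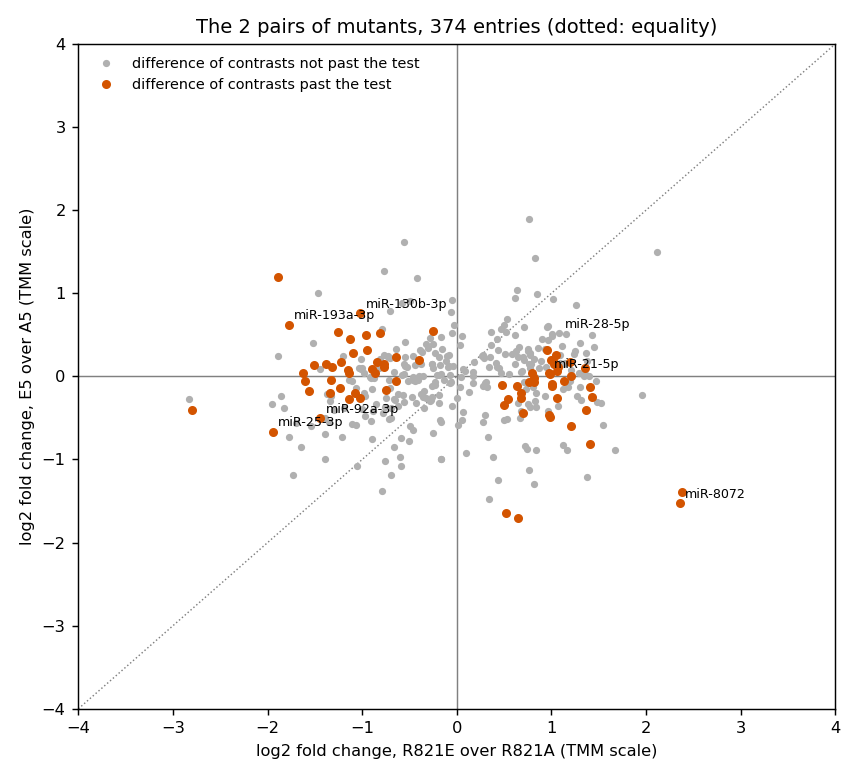
Log2 fold change of E5 over A5 (vertical axis) against that of R821E over R821A (horizontal axis) for the 374 tested entries, with the 77 entries called for the difference between the contrasts in orange. The cloud is wider along R821E over R821A, with median absolute values of 0.761 and 0.262.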

How the data were processed

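AQ-seq, a small RNA sequencing protocol made to reduce ligation bias, was applied to total RNA of HCT116 cells, per the labels' protocols. The authors deposited raw counts per miRNA and spike-in entry, not normalised. The tools named by the submitters' processing notes are bedtools, BWA and cutadapt, the builds mm10 and hg38, and the treatment of reads matching several entries by no source used here. The rows of miR-500a-5p and miR-500b-5p are the same throughout.

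From the deposited counts, 374 entries passing filterByExpr were fitted in edgeR 4.0.16 (R 4.3.3) over the 12 libraries in 6 groups (TMM, robust quasi-likelihood, 6 residual degrees of freedom), with the contrast E5 minus A5 and adjustment over all 374. The SE was taken as the fold change over the square root of F. A second fit took summed spike-in counts as library sizes. Arm ratios, log2((5p + 0.5)/(3p + 0.5)), of hairpins averaging 20 counts or more on each arm were tested with limma 3.58.1, and library quantities with an exact permutation test. Alternatives included DESeq2 1.42.0, other scalings and filters, a replicate block and leaving out each library. The fits were tested on simulated data with changes of more than 2-fold, larger than most estimates here. How well smaller changes are detected was not tested.

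The members, lists and tests were chosen with earlier results of these data known. Named entries were, on each side, the 10 of smallest p averaging 100 CPM or more in E5 or in A5, with no overlap between groups, since none was called, beside the 10 most abundant. For the spike-in scale, arm ratios and the difference of contrasts, 5 a side were taken, the last by size among called entries at 100 CPM or more in any of the 4 groups. List examples were up to 4 members of highest level, and let-7d-5p was given in addition.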

Additional observations from a re-analysis of the deposited data

Results flagged for a closer look

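Between the contrasts E5 over A5 and R821E over R821A, 77 entries differed by edgeR's test of the difference itself, a count that falls to 0 without the first A5 library or the first R821A library. Of the entries named in the text, let-7b-5p and let-7f-5p left out, 28 were among them. The values below are the difference of contrasts on the log2 scale with TMM. The scale decides many of these calls. With spike-in scaling all 13 with positive values were called again, while of the 15 with negative values 1, miR-8072, was called and 4 changed sign. The median difference over all entries was 0.82 on that scale and -0.0074 with TMM. That shift favours positive calls, so the repeated calls add little to those with TMM.

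Positive values, where E5 over A5 exceeded R821E over R821A, were found for 13 of the 28. They were 2.40 for miR-193a-3p and 2.40 for miR-1915-3p, which had 9 and 9 counts in E5 libraries, against 9 and 18 counts in A5 libraries. miR-126-3p, an endothelial miRNA from an intron of EGFL7, had 1.79, on 227 and 444 CPM in E5 libraries, against 221 and 245 CPM in A5 libraries, where the second E5 library stands above the other 3. The values were 1.79 for miR-130b-3p, 1.66 for miR-330-3p, 1.53 for miR-27a-3p and 1.28 for miR-25-3p. They were 1.09 for miR-221-3p, 0.94 for miR-92a-3p, 0.88 for miR-222-3p and 0.80 for miR-101-3p. They were 1.34 for miR-19b-3p and 0.98 for miR-200b-3p.

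Negative values were found for the other 15. miR-8072 had -3.88, at 1 to 5 counts in the E5 and A5 libraries. miR-26b-3p had -2.22, on 299 and 100.5 CPM in E5 libraries, against 311 and 369.9 CPM in A5 libraries, where the second E5 library is far below the first. The values were -1.80 for miR-548b-5p, -1.77 for miR-4485-3p and -1.68 for miR-1275. They were -0.95 for miR-4521, -0.93 for miR-21-5p, -0.84 for miR-100-5p, -0.64 for miR-29b-1-5p and -0.58 for miR-16-5p. They were -2.35 for miR-30c-1-3p and -2.16 for miR-182-3p, both at a few counts in the E5 libraries, and -1.02 for miR-18a-5p, -0.76 for miR-106b-5p and -0.75 for miR-93-5p. The same differences with spike-in scaling were -0.090 for miR-4521, -0.085 for miR-21-5p, -0.011 for miR-100-5p, 0.19 for miR-29b-1-5p and 0.25 for miR-16-5p.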

How the results depend on the processing

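Entries at an unadjusted p under 0.05 on the TMM scale numbered 37, and 11 to 61 with a library left out. The count of entries called between E5 and A5 on the TMM scale was 0 in every alternative but one. Over the fits that leave out a library it ranged from 0 to 1, and likewise on the spike-in scale. The 1 was miR-6087 without the first E5 library (log2 fold change 2.68, adjusted p = 0.00559 on the TMM scale, and 2.53 with 0.0118 on the spike-in scale), an entry with 132.9 and 955 CPM in E5 libraries, against 185.5 and 117 CPM in A5 libraries. On the spike-in scale, 2 entries were called with TMM factors of the spike-ins and 2 with a minimum mean of 100 CPM, both times miR-25-3p and miR-92a-3p, lower in E5. The difference of contrasts was called for 50 entries with upper quartile scaling, 51 without a filter and 116 on the spike-in scale, and leaving out a library gave 0 to 86, or 0 to 55 for the R821E and R821A libraries. Scaling by total counts moved its split to 82 higher and 5 lower. The number of lists with a median below 0 was 12 of 29, and 22 on the spike-in scale and with upper quartile scaling. No entry was called between E5 and A5 in the main fit, so the fold changes that changed sign could only be of entries not called there. Among them were miR-6087 and some entries called for the difference of contrasts, such as miR-21-5p and miR-27a-3p. On the spike-in scale the values were -0.0894 for miR-21-5p, -0.0990 for miR-330-3p and -0.00473 for miR-4521, and DESeq2 gave 0.0173 for miR-100-5p. Over the fits that leave out a library, the values ran from -0.178 to 0.131 for miR-100-5p, -0.0341 to 0.930 for miR-126-3p, -0.598 to 0.0699 for miR-21-3p, -0.0619 to 0.150 for miR-21-5p, -0.304 to 0.0150 for miR-221-3p, -0.178 to 0.422 for miR-27a-3p, -0.0537 to 0.519 for miR-31-5p, -0.0144 to 0.0912 for miR-330-3p and -0.149 to 0.445 for miR-4521. Of 27 entries named outside the naming rule and followed in these fits, 3 changed sign when a library was left out, miR-20a-5p, miR-93-3p and miR-6087. The entries let-7b-5p, let-7f-5p and miR-130a-3p, also named outside the rule, were not followed in this way. The cause of the sign changes was not tested. The labels do not say whether libraries with the same replicate number were handled together. The deviations of same-numbered E5 and A5 libraries had a correlation of 0.0456, and over pairs of the 6 groups it ran from -0.46 to 0.32. With 2 libraries a group, these values cannot decide whether the numbers pair the samples. With the replicate number as a block, 0 entries were called on the TMM scale (30 at an unadjusted p under 0.05), 0 on the spike-in scale, 0 hairpins and 56 for the difference of contrasts. With 2 libraries a group, the spread between replicates and the depth of 179615 to 250294 counts limit what could be detected at low levels. Fits on the spike-in scale and without R821 libraries for the difference of contrasts were added after seeing the data.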

Other observations

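A few entries with too few counts to be tested had counts in one group alone. miR-345-3p had 0 and 0 counts in E5 libraries, against 6 and 2 in A5 libraries. miR-6511a-5p and miR-6511b-5p each had 0 and 0 counts in E5 libraries, against 4 and 2 in A5 libraries. miR-4791 had 1 and 6 counts in E5 libraries and miR-3191-5p 0 and 6, against 0 and 0 for each in A5 libraries. These are at or near the floor of 3 counts.

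Over all 374 tested entries, 17.9% were higher and 19.8% lower in both E5 libraries, and the counts that follow are descriptions beside these shares. By arm, 35 of 174 entries named 5p were higher and 28 lower, with a median of 0.040. Of 148 named 3p, 20 were higher and 37 lower, with a median of -0.090. Of 13 entries that overlap a snoRNA, tRNA or rRNA, 4 were higher and 3 lower, with a median of 0.15.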
